A study of Aquarana catesbeiana with 18 samples.

Results

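The enzymes that break glucose down to pyruvate and then route pyruvate onward were examined in American bullfrogs, comparing albino with wild-type back skin, liver and eyes. The members are the 77 of 24636 gene rows whose pathway annotation in the deposited table lists glycolysis and gluconeogenesis or pyruvate metabolism, without an entry for PPAR signaling or for glycine, serine and threonine metabolism. Of these, 62 carried the glycolysis entry, 47 the pyruvate entry and 32 both, and 31 were known by a locus number only and were placed by their product description. A further 11 rows with either entry fell to the exclusions, among them PCK1, PCK2, PGAM1, PGAM2, ME1 and DLD. RNA-seq was run on 18 libraries in 6 groups of 3: albino skin, wild-type skin, albino liver, wild-type liver, albino eyes and wild-type eyes. The labels give genotype and tissue, with no allele, age, sex or treatment, and do not say whether the 3 libraries of a group came from separate animals, so p-values measure the spread between libraries. Libraries held 34293298 to 39219162 counts, and the members took 0.655% to 2.68% of them.

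Glycolysis turns glucose into pyruvate in the cytosol with a small yield of ATP, and its steps are shared among isoenzymes that differ between tissues. Pyruvate is then reduced to lactate, oxidised to acetyl-CoA by the mitochondrial pyruvate dehydrogenase complex, or carboxylated toward glucose again; the liver runs this last route and releases glucose to the blood through glucose-6-phosphatase. Photoreceptors are known for intense glycolysis with lactate release, and lens fibres, which lose their mitochondria, depend on glycolysis.

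Levels are given as deposited FPKM (fragments per kilobase, scaled to library size) where genes or tissues are set side by side, and as CPM (counts scaled to library size), adjusted by TMM (trimmed mean of M-values) within a tissue, where albino and wild-type are compared. Overlap of a member between albino and wild-type libraries refers to this CPM scale unless another is named, and can differ by FPKM. A member is called, and said to be higher or lower, where its adjusted p is under 0.05 in edgeR's quasi-likelihood test with Benjamini-Hochberg adjustment over all genes tested in that comparison. Errors of log2 differences are standard errors, and errors of levels are SDs over 3 libraries. In bulk tissue, fewer cells of a type and less RNA per cell cannot be told apart.

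Marker genes fitted the tissue labels, apart from lens genes in 2 libraries of the eyes. On the scale of CPM by library total, 14 rows of hepatocyte markers summed to 138368 to 195104 CPM in liver and at most 88.0 CPM elsewhere, and the 12 photoreceptor markers summed to 24417 CPM or more in eyes. Albino eyes 1 and 2 stood apart: their 9 lens markers summed to 22.5 and 8.27 CPM, with 3 and 2 of the 9 rows at 0, against 37435 CPM in albino eyes 3 and 62590 to 97777 CPM in wild-type eyes. In albino eyes, skeletal muscle markers summed to 6713, 13494 and 13539 CPM, against 3792, 1978 and 5862 CPM in wild-type eyes, and photoreceptor markers to 46592 to 66545 CPM, against 24417 to 38479 CPM in wild-type eyes. Albino skin 2 held 274 CPM of muscle markers, against 3.53 to 19.4 CPM in the other 5 skin libraries. Wild-type liver 2 and 3 were the closest pair of replicates, with a median chi-square per gene of 3.13 where sampling noise alone gives 0.455 and the other liver pairs of a genotype gave 6.76 to 10.2.

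Across the 6 groups, 70 of the 77 members averaged at least 1 FPKM in some group and 7 stayed below 1 FPKM in every group. Of these 70, by wild-type mean, 16 were highest in skin, 19 in liver and 35 in eyes, and each wild-type tissue held 12 or 13 members at 100 FPKM or more. FPKM follows library totals, by which the median gene was 1.22 (log2) higher in wild-type eyes than in liver, against 0.20 with TMM. For wild-type skin against liver it was 1.00 by library totals and 0.08 with TMM. The same tally over all genes was not made. GAPDH, which oxidises glyceraldehyde 3-phosphate, was the most abundant member in skin and liver, at 2451 ± 327 FPKM in wild-type skin and 3439 ± 544 FPKM in wild-type liver. In wild-type eyes the enolase ENO1 led with 2141 ± 212 FPKM, ahead of GAPDH with 1092 ± 165 FPKM and the aldolase ALDOA with 964 ± 314 FPKM. ENO1 and GAPDH did not overlap in wild-type eyes, while GAPDH and ALDOA did.

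**Figure D1:**
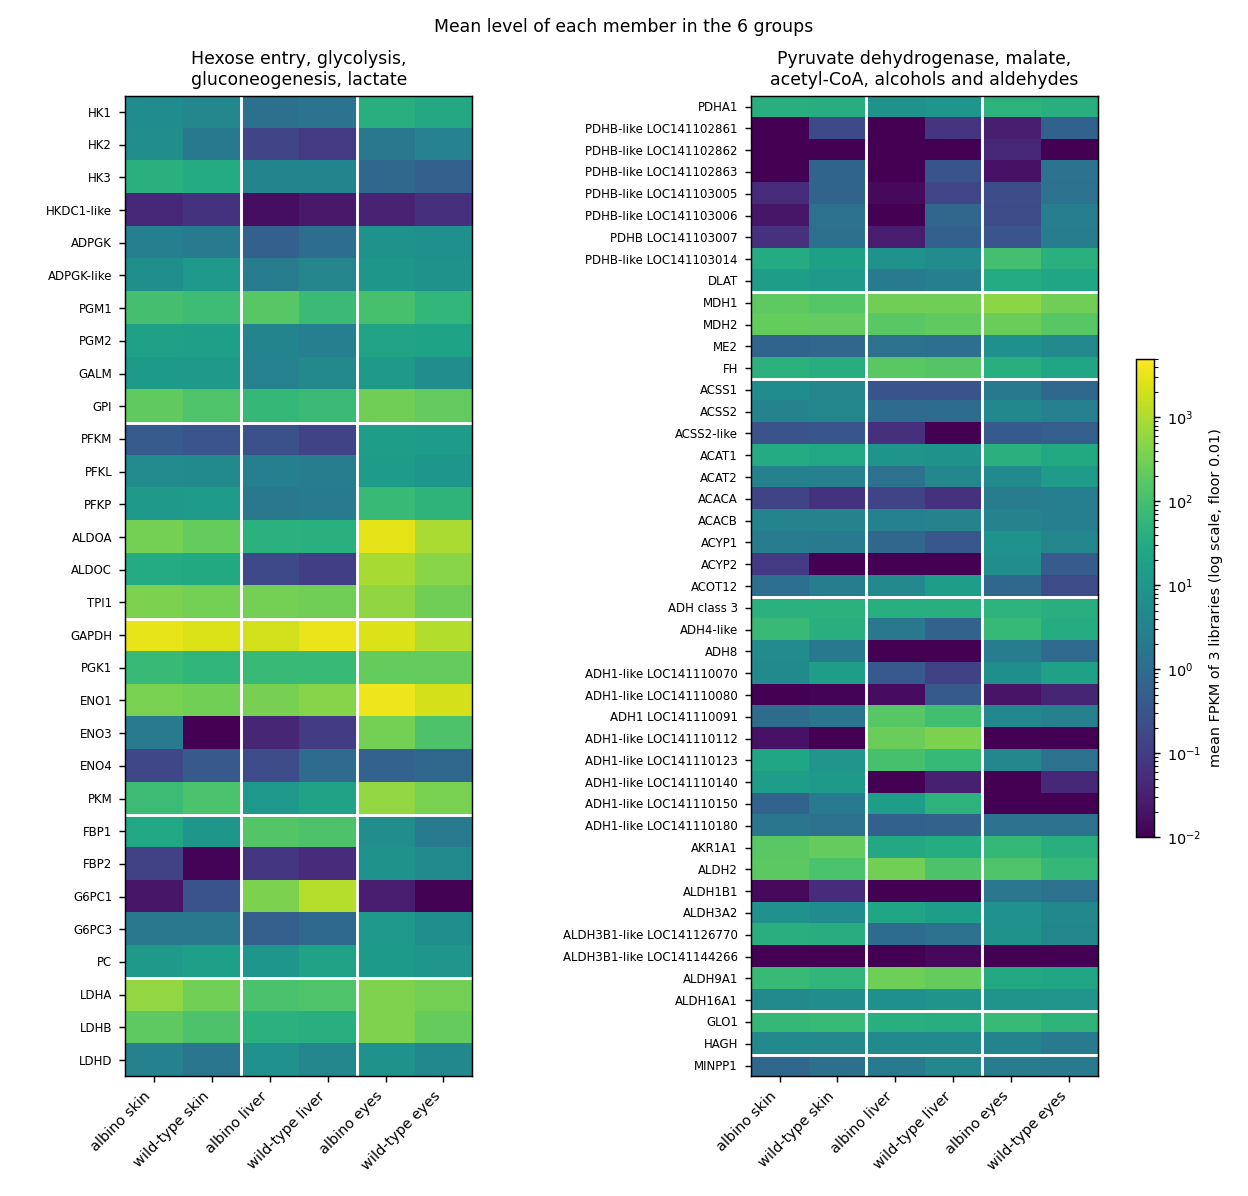
Mean FPKM of the 3 libraries of each group (colour, log scale with a floor of 0.01) for 75 of the 77 members, with albino left of wild-type in each tissue and white lines between roles and between tissues. Liver stands out for G6PC1 and several ADH1-like rows, eyes for ENO1, ENO3, ALDOA and ALDOC, and 6 of the 7 rows of the pyruvate dehydrogenase beta subunit are under 1 FPKM in every albino group.

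Among HK1, HK2 and HK3, hexokinases that trap glucose in the cell, the leading one differed between tissues. HK3 made up 83.4% ± 0.605 of the summed FPKM of the 3 in wild-type skin and 70.3% ± 2.98 in wild-type liver. HK1 made up 87.2% ± 4.97 in wild-type eyes.

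ALDOA, an aldolase that splits fructose 1,6-bisphosphate, was at 224 ± 20.7 FPKM in wild-type skin, 41.4 ± 7.47 FPKM in wild-type liver and 964 ± 314 FPKM in wild-type eyes. ALDOC, the aldolase of brain and retina in mammals, was at 28.8 ± 4.18 FPKM in wild-type skin, 0.112 ± 0.0327 FPKM in wild-type liver and 484 ± 153 FPKM in wild-type eyes. Among phosphofructokinases, the main control point of the pathway, the platelet type PFKP led in wild-type skin (71.6% ± 5.12) and wild-type eyes (68.0% ± 11.9). The liver type PFKL held 53.7% ± 9.91 in wild-type liver, within the spread of PFKP with 43.4% ± 11.0. ENO3, the muscle enolase, reached 5.67% ± 5.03 of enolase FPKM in wild-type eyes and was under 0.05% in wild-type skin and liver. LDHA took 69.7% ± 10.2 of L-lactate dehydrogenase FPKM in wild-type skin, 76.4% ± 8.83 in wild-type liver and 58.5% ± 1.55 in wild-type eyes.

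**Figure D2:**
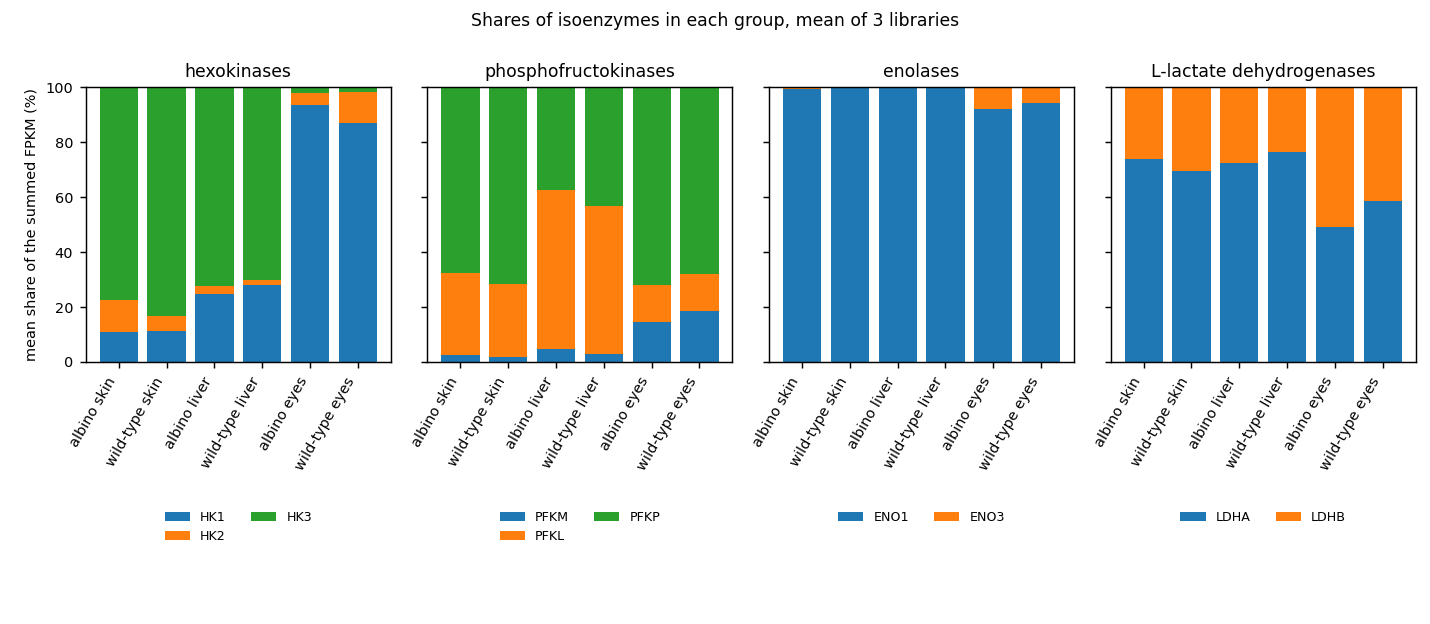
Mean share (%) of each isoenzyme in the summed FPKM of its family in the 6 groups, with albino left of wild-type in each tissue; SDs are in the text. Of HK1, HK2 and HK3, HK3 has the largest share in skin and liver and HK1 in eyes, in both genotypes.

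Wild-type eyes differed from wild-type skin in 41 of 71 tested members, 24 higher and 17 lower in eyes, where 55.8% of all genes tested were called (29.2% higher and 26.6% lower). Higher in eyes were 5 of 7 members of the steps from fructose 6-phosphate to triose phosphates and 4 of 6 members of the steps from glyceraldehyde 3-phosphate to pyruvate. ENO3 was at 81.2, 49.1 and 247 FPKM in wild-type eyes, against 0 to 0.0132 FPKM in wild-type skin. The skin value rests on 2 counts, so no fold is given (adjusted p = 6.91e-05). ALDOC was at 659, 379 and 413 FPKM in wild-type eyes and 32.8, 24.5 and 29.1 FPKM in wild-type skin, a log2 difference of 3.93 ± 0.29 (adjusted p = 5.75e-05). FBP2, the muscle-type fructose bisphosphatase, was at 3.33, 0.808 and 11.1 FPKM in wild-type eyes, against 2 counts in all in wild-type skin (adjusted p = 0.00201). Also among the 6 largest differences upward were PFKM with 5.32 ± 0.58 (adjusted p = 0.000281), the acetyl-CoA carboxylase ACACA with 5.32 ± 0.28 (adjusted p = 1.78e-05) and the aldehyde dehydrogenase ALDH1B1 with 4.56 ± 0.31 (adjusted p = 3.76e-05). ENO3, PFKM and FBP2 are muscle isoenzymes in mammals, and 13 of 14 rows of muscle markers were at 1 CPM or more in each wild-type eye library, against 0 or 1 row in each wild-type skin library; their part in these differences was not tested.

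Lower in wild-type eyes than in wild-type skin were 6 of 16 tested alcohol and aldehyde enzymes. The alcohol dehydrogenase ADH1-like LOC141110140 stood at 0.0460 ± 0.0633 FPKM in eyes and 11.5 ± 1.61 FPKM in skin. HK3 was at 0.567 ± 0.258 FPKM in eyes and 32.3 ± 11.8 FPKM in skin, and the log2 difference was -5.93 ± 0.35 (adjusted p = 2.54e-05). The other 4 largest decreases were ADH1-like LOC141110150, listed at 0 in all wild-type eye libraries (adjusted p = 0.00695), G6PC1, with 3 counts in all in eyes (adjusted p = 0.00130), the acyl-CoA thioesterase ACOT12 with -3.67 ± 0.41 (adjusted p = 0.000315) and ALDH3B1-like LOC141126770 with -3.17 ± 0.33 (adjusted p = 0.000219).

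Wild-type skin differed from wild-type liver in 47 of 69 tested members, where 44.4% of all genes tested were called (25.3% higher and 19.1% lower). TMM scaling gave 19 higher and 28 lower in skin, and scaling by library totals 31 higher and 16 lower, with the median gene at 0.08 and 1.00 (log2). Over all 16919 genes tested, library totals gave 8823 higher and 1756 lower. The log2 differences given next are from TMM scaling, and each is larger in size than 1.00. G6PC1, the glucose-6-phosphatase subunit that lets liver release glucose, was at 0.381, 0.344 and 0.129 FPKM in wild-type skin and 851, 1456 and 1095 FPKM in wild-type liver. ADH1 LOC141110091 differed by -6.62 ± 0.75 (adjusted p = 0.000401). ADH1-like LOC141110112 was listed at 0 in wild-type skin and at 384, 381 and 378 FPKM in wild-type liver (adjusted p = 2.57e-05), and ADH1-like LOC141110080 differed by -6.04 ± 1.16 (adjusted p = 0.00463). LOC141110080 was at 0, 0.0333 and 0 FPKM in wild-type skin, so the size of its difference is uncertain. Upward in skin, ADH8 was at 1.34, 2.27 and 2.39 FPKM, against 0 in every wild-type liver library (adjusted p = 0.000845). The other large increases in skin were ADH1-like LOC141110140 with 7.55 ± 0.41 (adjusted p = 2.52e-05), ALDOC with 7.09 ± 0.34 (adjusted p = 1.83e-05), ADH1-like LOC141110070 with 6.11 ± 1.16 (adjusted p = 0.00461), ADH4-like, a retinol dehydrogenase by its description, with 5.01 ± 0.33 (adjusted p = 4.22e-05) and ALDH3B1-like LOC141126770 with 3.77 ± 0.41 (adjusted p = 0.000321). LOC141110140 was at 0.0186, 0.0557 and 0.0187 FPKM in wild-type liver, which leaves its size uncertain too.

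Wild-type eyes differed from wild-type liver in 64 of 72 tested members, where 68.9% of all genes tested were called (38.6% higher and 30.4% lower). TMM scaling gave 34 higher and 30 lower in eyes, and library totals 42 and 19, with the median gene at 0.20 and 1.22. Over all 18047 genes tested, library totals gave 11051 higher and 2927 lower. ALDOC was higher in eyes by 11.01 ± 0.37 (adjusted p = 7.58e-07) and ENO3 by 9.28 ± 0.85 (adjusted p = 5.25e-05), followed by ALDH1B1 with 6.77 ± 0.74 (adjusted p = 0.000115) and ADH1-like LOC141110070 with 6.09 ± 0.71 (adjusted p = 0.000185). ALDH1B1 was at 0.0173, 0 and 0 FPKM in wild-type liver, so the size of its difference is uncertain. ACSS2-like, described as an acetyl-CoA synthetase, was at 0.365, 0.550 and 0.712 FPKM in wild-type eyes, against 1 count in all in wild-type liver (adjusted p = 0.000358). ADH8 was at 1.10, 1.55 and 0.243 FPKM in wild-type eyes and at 0 in wild-type liver (adjusted p = 0.00447). G6PC1 was at 0.0109 to 0.0114 FPKM in wild-type eyes, which is 3 counts in all, and at 851, 1456 and 1095 FPKM in wild-type liver (adjusted p = 7.45e-07). ACOT12 was at 0.207 ± 0.0522 FPKM in eyes and 15.3 ± 3.07 FPKM in liver, and FBP1, the liver fructose bisphosphatase of gluconeogenesis, at 2.36 ± 2.30 and 126 ± 33.2 FPKM. ADH1-like LOC141110112 and LOC141110150 were listed at 0 in wild-type eyes and averaged 381 ± 2.90 and 47.7 ± 11.9 FPKM in wild-type liver.

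Albino eyes differed from wild-type eyes in 21 of 68 tested members, 14 higher and 7 lower, where 11.2% of all genes tested were called (5.10% higher and 6.10% lower). Among the 14 that rose were the aldolase ALDOA, the triose phosphate isomerase TPI1, GAPDH and the lactate dehydrogenase subunit LDHB. By role, 2 of 7 tested members from fructose 6-phosphate to triose phosphates rose, 1 of 6 of the later steps to pyruvate and 1 of 3 lactate dehydrogenases, and none of these fell. Both malate dehydrogenases and the aldehyde dehydrogenase ALDH2 rose as well, while 5 of the 7 that fell are rows of the pyruvate dehydrogenase beta subunit. The groups did not overlap in 29 members that were higher and 12 that were lower in albino eyes, where 36.6% of all genes tested did not overlap (19.0% higher and 17.7% lower). The median log2 difference of the 68 tested members was 0.28, beside 0.01 over all genes tested.

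GAPDH was at 1112, 1105 and 1079 CPM in albino eyes, against 580.3, 548 and 599.7 CPM in wild-type eyes. Every albino eye library was above every wild-type one, with a log2 difference of 0.93 ± 0.13 (adjusted p = 0.00735). ALDOA was at 2894, 5679 and 5822 CPM in albino eyes, against 1581, 1562 and 2529.6 CPM in wild-type eyes, and differed by 1.34 ± 0.32 (adjusted p = 0.0379). Albino eyes 1, the lowest of the 3 albino libraries, still lay above the highest wild-type library. TPI1, which interconverts the triose phosphates, was at 441, 570.1 and 556 CPM in albino eyes, against 341, 299 and 343 CPM in wild-type eyes, a difference of 0.67 ± 0.14 (adjusted p = 0.0278). ALDOC was at 1732, 1895 and 1391 CPM in albino eyes, against 1354, 988 and 924 CPM in wild-type eyes. ALDOC did not overlap between genotypes but was not called, at 0.62 ± 0.20 (adjusted p = 0.0879).

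ENO1 was at 6082, 6237 and 6018 CPM in albino eyes, against 4282, 5091 and 3831 CPM in wild-type eyes. Its groups did not overlap, and its difference of 0.47 ± 0.15 (adjusted p = 0.0849) missed the threshold. PKM, which makes pyruvate in the last step of glycolysis, was at 1244, 1493 and 1239 CPM in albino eyes, against 1088, 917 and 966 CPM in wild-type eyes, a difference of 0.42 ± 0.15 (adjusted p = 0.117) that was not called. PGK1 was at 322, 382 and 331 CPM in albino eyes, against 382, 483 and 422 CPM in wild-type eyes. PGK1, an ATP-forming step between GAPDH and enolase, lay lower in each albino library than in any wild-type one, by under 1 CPM between albino eyes 2 and wild-type eyes 1, without being called (-0.31 ± 0.14, adjusted p = 0.171). By deposited FPKM PGK1 overlapped, with 248 in albino eyes 2 and 228 in wild-type eyes 3. ENO3 was at 369, 875 and 594 CPM in albino eyes, against 170.2, 131 and 564 CPM in wild-type eyes. ENO3 overlapped, with wild-type eyes 3 inside the albino range, and its difference was 1.09 ± 0.65 (adjusted p = 0.321).

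The muscle markers give context for ALDOA and ENO3. Within albino eyes, library 1 had the lowest ALDOA, ENO3 and muscle sum, and within wild-type eyes library 3 had the highest of all 3. The muscle creatine kinase gene CKM was at 2586, 6396 and 6405 CPM in albino eyes, against 1628, 804 and 2143 CPM in wild-type eyes. Of the 14 rows of muscle markers, 1 was called higher and 0 lower in albino eyes, with 11 differences positive and 3 negative. TPI1 and MDH2 were likewise lowest in albino library 1 and highest in wild-type library 3, while LDHB, MDH1 and ALDH2 did not share both. GAPDH followed the order of the muscle sum within wild-type eyes. Within albino eyes its values lay too close together for their order to be read. The 6 retinal pigment epithelium markers summed to 5359 to 6857 CPM in albino eyes and 3209 to 4323 CPM in wild-type eyes, without overlap, and 3 of the 6 were called higher. The part of muscle, photoreceptors, retinal pigment epithelium or lens in these differences was not tested. With the crystallin and lens-marker rows left out before the fit the count was again 21. Leaving out rows does not remove the members' own reads from lens cells, so that count cannot show the part of lens. With albino eyes 1 and 2 left out together, only albino eyes 3 was set against wild-type eyes. For a member whose groups did not overlap with all libraries, the direction was then largely fixed in advance and is no further support. In that reduced comparison GAPDH differed by 0.90, ALDOA by 1.62 and ALDH2 by 0.87.

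**Figure D3:**
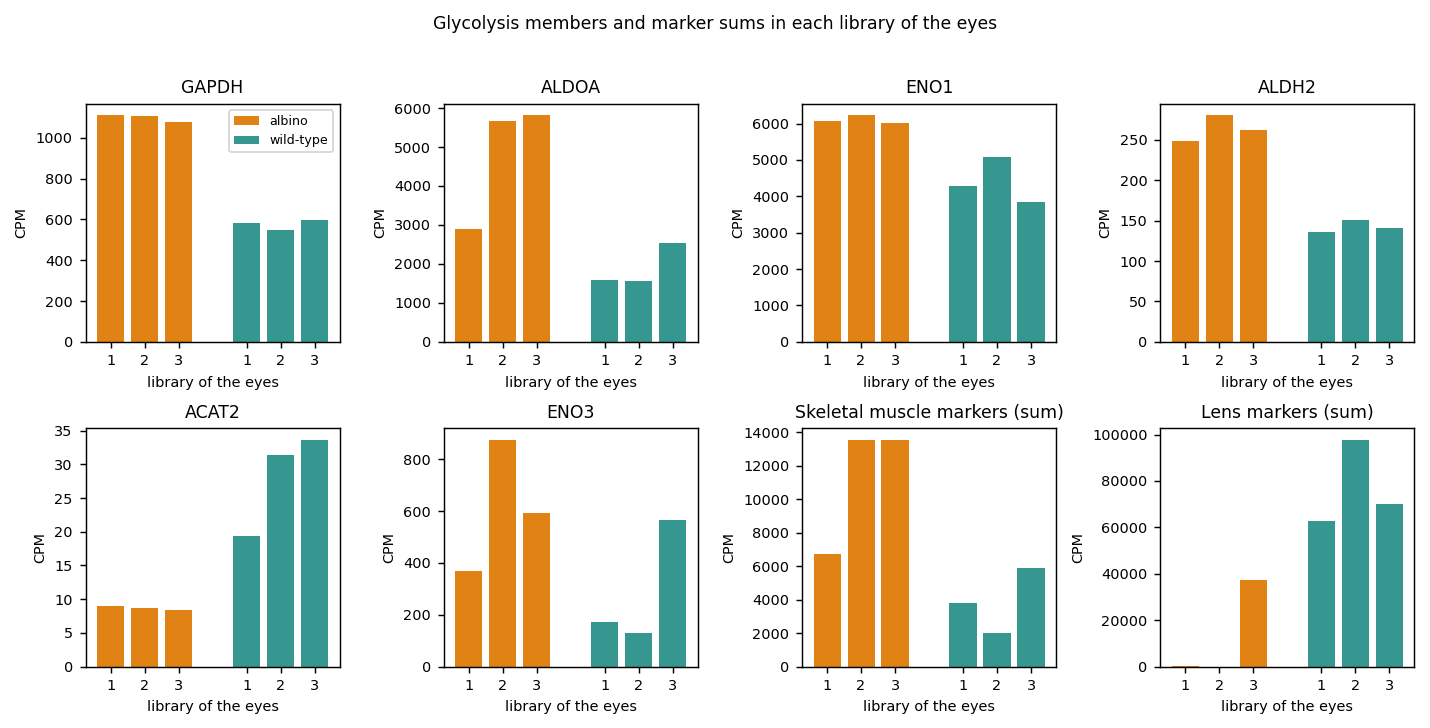
Level in CPM of 6 members and summed CPM of muscle and lens markers in each of the 3 albino (left) and 3 wild-type (right) libraries of the eyes. GAPDH, ALDOA, ENO1 and ALDH2 are higher and ACAT2 lower in every albino library than in every wild-type one, ENO3 overlaps, and albino eyes 1 and 2 have almost no lens signal.

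At the entry of hexose into the pathway, 1 of 9 tested members rose in albino eyes and none fell. HK1 was at 152, 181 and 139 CPM in albino eyes, against 141, 118 and 139 CPM in wild-type eyes. HK2, an inducible hexokinase in mammals, was at 7.91, 10.2 and 17.2 CPM in albino eyes, against 18.8, 38.1 and 20.2 CPM in wild-type eyes. HK1 overlapped between genotypes (0.25 ± 0.13, adjusted p = 0.256), whereas HK2 was lower in every albino library without being called (-1.13 ± 0.38, adjusted p = 0.0997). GPI, which turns glucose 6-phosphate into fructose 6-phosphate, was at 536, 645 and 564 CPM in albino eyes, against 527, 520.0 and 473 CPM in wild-type eyes. PFKP, the main phosphofructokinase of the eyes, was at 229, 244 and 212 CPM in albino eyes, against 219.7, 185 and 158 CPM in wild-type eyes. PFKL was at 49.5, 61.8 and 52.7 CPM in albino eyes, against 47.6, 49.7 and 48.7 CPM in wild-type eyes. PFKM was at 36.9, 54.0 and 53.5 CPM in albino eyes, against 28.7, 34.9 and 97.3 CPM in wild-type eyes. The differences were 0.20 ± 0.13 (adjusted p = 0.361) for GPI, 0.28 ± 0.14 (adjusted p = 0.224) for PFKP, 0.17 ± 0.11 (adjusted p = 0.367) for PFKL and -0.16 ± 0.49 (adjusted p = 0.861) for PFKM. None was called, and GPI alone of the 4 did not overlap. GALM, the galactose mutarotase, was the single hexose-entry member that rose, at 26.1, 21.8 and 19.8 CPM in albino eyes, against 14.6, 14.2 and 15.1 CPM in wild-type eyes (0.62 ± 0.14, adjusted p = 0.0338).

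LDHB, the heart-type lactate dehydrogenase subunit, was at 477, 465 and 504 CPM in albino eyes, against 340.0, 317 and 321 CPM in wild-type eyes. LDHA, the muscle-type subunit, was at 914, 1044 and 923 CPM in albino eyes, against 943, 997 and 923 CPM in wild-type eyes. LDHB rose by 0.56 ± 0.11 (adjusted p = 0.0223) with no overlap, and LDHA gave 0.01 ± 0.14 (adjusted p = 0.970) with overlapping groups. By FPKM, LDHB held 51.0% ± 2.68 of the pair in albino eyes and 41.5% ± 1.55 in wild-type eyes. The shares did not overlap between genotypes. The fructose bisphosphatases overlapped: FBP1 was at 8.59, 5.83 and 12.1 CPM in albino eyes, against 2.15, 1.15 and 7.87 CPM in wild-type eyes, FBP2 at 9.13, 13.7 and 14.3 CPM in albino eyes, against 5.38, 1.66 and 19.6 CPM in wild-type eyes. G6PC3, the glucose-6-phosphatase subunit found in most tissues, was at 31.1, 37.6 and 33.7 CPM in albino eyes, against 28.9, 22.6 and 22.1 CPM in wild-type eyes, and pyruvate carboxylase (PC) at 79.9, 101 and 89.8 CPM in albino eyes, against 76.8, 83.6 and 80.8 CPM in wild-type eyes. Neither G6PC3 (0.47 ± 0.15, adjusted p = 0.0758) nor PC (0.16 ± 0.11, adjusted p = 0.368) was called, and G6PC1 had 7 counts in albino eyes and 3 in wild-type eyes in all.

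Of the malate enzymes, cytosolic MDH1 was at 659, 679 and 528 CPM in albino eyes, against 434, 391 and 421 CPM in wild-type eyes and mitochondrial MDH2 at 328, 338 and 342 CPM in albino eyes, against 246, 239.7 and 256 CPM in wild-type eyes. Both rose, MDH1 by 0.58 ± 0.14 (adjusted p = 0.0411) and MDH2 by 0.44 ± 0.10 (adjusted p = 0.0330). Of the 6 comparisons that leave out 1 library, MDH1 was called in 1 and MDH2 in 0. Among acetyl-CoA enzymes, ACAT2, the cytosolic thiolase that starts sterol synthesis, was at 8.98, 8.65 and 8.33 CPM in albino eyes, against 19.4, 31.4 and 33.7 CPM in wild-type eyes. ACAT2 fell by 1.70 ± 0.21 (adjusted p = 0.00531), and its albino libraries lay within 8.33 to 8.98 CPM. The mitochondrial acetyl-CoA synthetase ACSS1 was at 11.1, 13.7 and 15.1 CPM in albino eyes, against 8.40, 5.15 and 6.62 CPM in wild-type eyes and rose by 0.99 ± 0.22 (adjusted p = 0.0312). ACYP2, an acylphosphatase found in muscle, was at 2.26, 4.25 and 5.35 CPM in albino eyes, against 0.408, 0.288 and 0.266 CPM in wild-type eyes. It rose by 3.60 ± 0.44 (adjusted p = 0.00455), the largest increase among the members called in eyes. ACOT12 was at 2.42, 3.61 and 2.44 CPM in albino eyes, against 0.598, 1.04 and 1.09 CPM in wild-type eyes and rose by 1.63 ± 0.37 (adjusted p = 0.0321). That call was kept in 0 of the 6 comparisons that leave out 1 library. ACSS2, the cytosolic synthetase, gave 0.33 ± 0.15 (adjusted p = 0.171) and ACACA, which commits acetyl-CoA to fatty acids, -0.38 ± 0.11 (adjusted p = 0.0618), neither called, with ACACA at 36.4, 41.3 and 44.0 CPM in albino eyes, against 54.1, 51.6 and 52.9 CPM in wild-type eyes.

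ALDH2, the mitochondrial enzyme that oxidises acetaldehyde, was at 249, 281 and 262 CPM in albino eyes, against 136, 151 and 141 CPM in wild-type eyes. Its difference was 0.89 ± 0.11 (adjusted p = 0.00432). ALDH3B1-like LOC141126770 was at 13.6, 16.3 and 12.0 CPM in albino eyes, against 8.94, 7.89 and 8.01 CPM in wild-type eyes and ADH1-like LOC141110123 at 7.10, 3.71 and 6.71 CPM in albino eyes, against 1.63, 2.95 and 2.22 CPM in wild-type eyes. Both rose, by 0.75 ± 0.17 (adjusted p = 0.0310) and 1.37 ± 0.34 (adjusted p = 0.0424). ADH1-like LOC141110070 went the other way, at 10.3, 7.07 and 11.2 CPM in albino eyes, against 29.6, 43.6 and 19.4 CPM in wild-type eyes, and fell by 1.70 ± 0.32 (adjusted p = 0.0206). The class 3 alcohol dehydrogenase, which oxidises glutathione-bound formaldehyde, overlapped between genotypes (0.13 ± 0.13, adjusted p = 0.539). So did the methylglyoxal enzymes GLO1, at 124, 170.4 and 154 CPM in albino eyes, against 133, 133 and 117 CPM in wild-type eyes (0.22 ± 0.14, adjusted p = 0.319), and HAGH, with 0.51 ± 0.26 (adjusted p = 0.239).

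The count of 21 depended on single libraries. It was 8, 6 and 11 without albino eyes 1, 2 and 3, and 15, 8 and 12 without wild-type eyes 1, 2 and 3. GAPDH, ALDH2, ACYP2, ACAT2, LOC141103007 and LOC141103014 were called in all 6 of these comparisons. Of these members, GAPDH alone lost its call in 1 fit of 18 libraries. ALDOA was called in 2 of the 6 comparisons, and TPI1, LDHB, ACSS1 and GALM in 1 of 6. Of the beta subunit rows that fell, LOC141102863 was called in 2 of 6, and LOC141103005, LOC141103006 and LOC141102861 in 1 of 6. Scaling by library totals, which moves the median gene to 0.28, gave 24 higher and 7 lower. Over all 17817 genes tested, that scaling gave 2284 higher and 623 lower.

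Albino liver differed from wild-type liver in 6 of 64 tested members, 3 higher and 3 lower, where 5.76% of all genes tested were called (2.86% higher and 2.90% lower). ALDH2, the phosphoglucomutase PGM1 and the D-lactate dehydrogenase LDHD rose, and 2 rows of the pyruvate dehydrogenase beta subunit and a low ADH1-like row fell. The median log2 difference of the 64 members was 0.19, beside 0.00 over all genes tested. The groups did not overlap in 15 members that were higher and 12 that were lower in albino liver, where 28.7% of all genes tested did not overlap (14.0% higher and 14.6% lower).

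ALDH2 was at 569, 794 and 766 CPM in albino liver, against 256, 254 and 228 CPM in wild-type liver. The lowest albino library was above the highest wild-type one, and the difference was 1.53 ± 0.21 (adjusted p = 0.00695). PGM1, which links glucose 6-phosphate with glycogen, was at 246, 467 and 365 CPM in albino liver, against 145, 131 and 125 CPM in wild-type liver and rose by 1.43 ± 0.26 (adjusted p = 0.0191). LDHD was at 11.3, 18.0 and 13.5 CPM in albino liver, against 7.04, 6.14 and 6.54 CPM in wild-type liver and rose by 1.12 ± 0.21 (adjusted p = 0.0206). ADH1-like LOC141110080 was at 0.0527, 0.0652 and 0.0534 CPM in albino liver, against 2.26, 1.03 and 0.521 CPM in wild-type liver, and fell by 4.41 ± 0.72 (adjusted p = 0.0147). The wild-type values are low and spread widely, with wild-type liver 1 highest.

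The glucose-releasing end of the pathway was not called. G6PC1 was at 1253, 1550.4 and 414 CPM in albino liver, against 1949, 3470.0 and 2399 CPM in wild-type liver. All 3 albino libraries lay below all wild-type ones, with albino liver 3 lowest, and the difference was -1.28 ± 0.47 (adjusted p = 0.156). FBP1 was at 225, 271 and 225 CPM in albino liver, against 218, 164 and 125 CPM in wild-type liver, without overlap and in the opposite direction (0.51 ± 0.24, adjusted p = 0.246). By deposited FPKM the FBP1 groups overlapped, at 150, 146 and 146 in albino liver, against 163, 118 and 98.4 in wild-type liver. PC was at 85.1, 115 and 48.4 CPM in albino liver, against 80.2, 175 and 136 CPM in wild-type liver, and its groups overlapped (-0.66 ± 0.37, adjusted p = 0.346).

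None of the glycolytic enzymes from GPI to pyruvate was called in liver. GAPDH was at 1183, 1126 and 925 CPM in albino liver, against 1234, 1685 and 1597 CPM in wild-type liver. GAPDH was lower in every albino library and was not called (-0.48 ± 0.22, adjusted p = 0.229). ENO1 was at 686, 723 and 659.6 CPM in albino liver, against 644, 915 and 829 CPM in wild-type liver and TPI1 at 339, 399.7 and 367 CPM in albino liver, against 247, 292 and 289 CPM in wild-type liver. PKM was at 29.7, 21.5 and 36.1 CPM in albino liver, against 50.3, 40.7 and 39.0 CPM in wild-type liver. TPI1 was higher and PKM lower in every albino library (0.42 ± 0.18, adjusted p = 0.222 and -0.57 ± 0.22, adjusted p = 0.164), and ENO1 overlapped (-0.21 ± 0.21, adjusted p = 0.598). GPI gave 0.05 ± 0.22 (adjusted p = 0.922), PFKL 0.44 ± 0.24 (adjusted p = 0.320), PFKP 0.17 ± 0.23 (adjusted p = 0.702) and PGK1 0.26 ± 0.20 (adjusted p = 0.493), all with overlapping groups. LDHA was at 264, 445 and 346 CPM in albino liver, against 212, 402 and 367 CPM in wild-type liver and LDHB at 57.9, 60.1 and 68.3 CPM in albino liver, against 52.0, 40.2 and 44.3 CPM in wild-type liver. On the CPM scale LDHB was higher in every albino library (0.45 ± 0.17, adjusted p = 0.168) and LDHA overlapped (0.11 ± 0.29, adjusted p = 0.874). By deposited FPKM LDHB overlapped, at 43.2, 36.2 and 49.5 in albino liver, against 43.5, 32.3 and 38.8 in wild-type liver. TPI1 overlapped by FPKM too, with 308 in albino liver 2 and 324 in wild-type liver 3.

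Several alcohol dehydrogenases of the liver came near the threshold. ADH1 LOC141110091 was at 498, 579.7 and 700.1 CPM in albino liver, against 389, 230.0 and 204 CPM in wild-type liver, a difference of 1.11 ± 0.28 (adjusted p = 0.0571). ADH1-like LOC141110150 was at 31.3, 57.8 and 25.0 CPM in albino liver, against 121, 80.8 and 80.8 CPM in wild-type liver, a difference of -1.31 ± 0.33 (adjusted p = 0.0592). These 2 rows did not overlap between genotypes and pointed in opposite directions, while LOC141110112, the liver alcohol dehydrogenase row with the highest mean FPKM in both genotypes, was at 423, 475 and 314 CPM in albino liver, against 493, 508 and 464 CPM in wild-type liver with overlap (-0.27 ± 0.21, adjusted p = 0.490). Of the 11 alcohol dehydrogenase rows, 10 lie within 12 consecutive coding genes of linkage group 1 in the RefSeq assembly ASM4218655v1. Reads of such copies may be shared between rows, and the sources used here do not give how the counting treated them, so single ADH1 rows are uncertain.

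ACAT2 was at 4.22, 2.58 and 1.52 CPM in albino liver, against 7.04, 6.53 and 7.06 CPM in wild-type liver and ACOT12 at 22.3, 31.1 and 12.3 CPM in albino liver, against 65.4, 57.4 and 41.6 CPM in wild-type liver. Both were lower in every albino library, with -1.31 ± 0.33 (adjusted p = 0.0583) and -1.32 ± 0.34 (adjusted p = 0.0603). ACACA was at 1.53, 2.87 and 3.90 CPM in albino liver, against 0.659, 1.35 and 1.06 CPM in wild-type liver, higher in every albino library (1.43 ± 0.42, adjusted p = 0.0849). MDH1 gave 0.22 ± 0.19 (adjusted p = 0.536), MDH2 0.09 ± 0.20 (adjusted p = 0.831), ACSS2 0.21 ± 0.19 (adjusted p = 0.551), the class 3 alcohol dehydrogenase 0.28 ± 0.27 (adjusted p = 0.590), GLO1 0.49 ± 0.28 (adjusted p = 0.351) and HAGH 0.24 ± 0.18 (adjusted p = 0.478). None was called, and MDH1 alone of the 6 did not overlap on the CPM scale. By deposited FPKM MDH1 overlapped, with 259 in albino liver 2 and 318 in wild-type liver 2.

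Macrophage markers, 10 rows, summed to 498 to 967 CPM in albino liver and 1018 to 2004 CPM in wild-type liver, and hepatocyte markers to 150458 to 195104 CPM in albino liver and 138368 to 154938 CPM in wild-type liver. The 9 lymphocyte markers summed to 70.9 to 151 CPM in albino liver and 154 to 262 CPM in wild-type liver, without overlap. The 9 erythrocyte markers summed to 180 to 375 CPM in albino liver and 124 to 190 CPM in wild-type liver, with overlap, 3 called higher and all 9 differences positive (median 0.88). The part of these cell types was not tested. The count of 6 was 11, 4 and 3 without albino liver 1, 2 and 3, and 9, 1 and 4 without wild-type liver 1, 2 and 3. LOC141103007 was called under every alternative run, and ALDH2 lost its call without wild-type liver 2 (adjusted p = 0.0588). Of the 6 comparisons that leave out 1 library, LOC141103006 was called in 5 and ADH1-like LOC141110080 in 3. PGM1 and LDHD were each called in 2 of the 6. With wild-type liver 2 and 3 summed as 1 library the count was 3, and ALDH2, PGM1 and LDHD were not among the calls. Library totals, which move the median gene to -0.28, gave 3 higher and 7 lower and a member median of -0.07. Over all 14990 genes tested, library totals gave 243 higher and 939 lower.

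Albino skin differed from wild-type skin in none of 65 tested members, where 0.0946% of all genes tested were called (0.0591% higher and 0.0355% lower). At an unadjusted p under 0.05 there were 12 members, beside 2199 of 16921 genes. DESeq2 called 5 members, 2 higher and 3 lower, beside 757 of 16921 genes. The groups did not overlap in 10 members that were higher and 7 that were lower in albino skin, where 19.8% of all genes tested did not overlap (10.4% higher and 9.43% lower). The median log2 difference was 0.24, beside 0.01 over all genes tested, and 45 of the 65 differences were above 0.

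**Figure D4:**
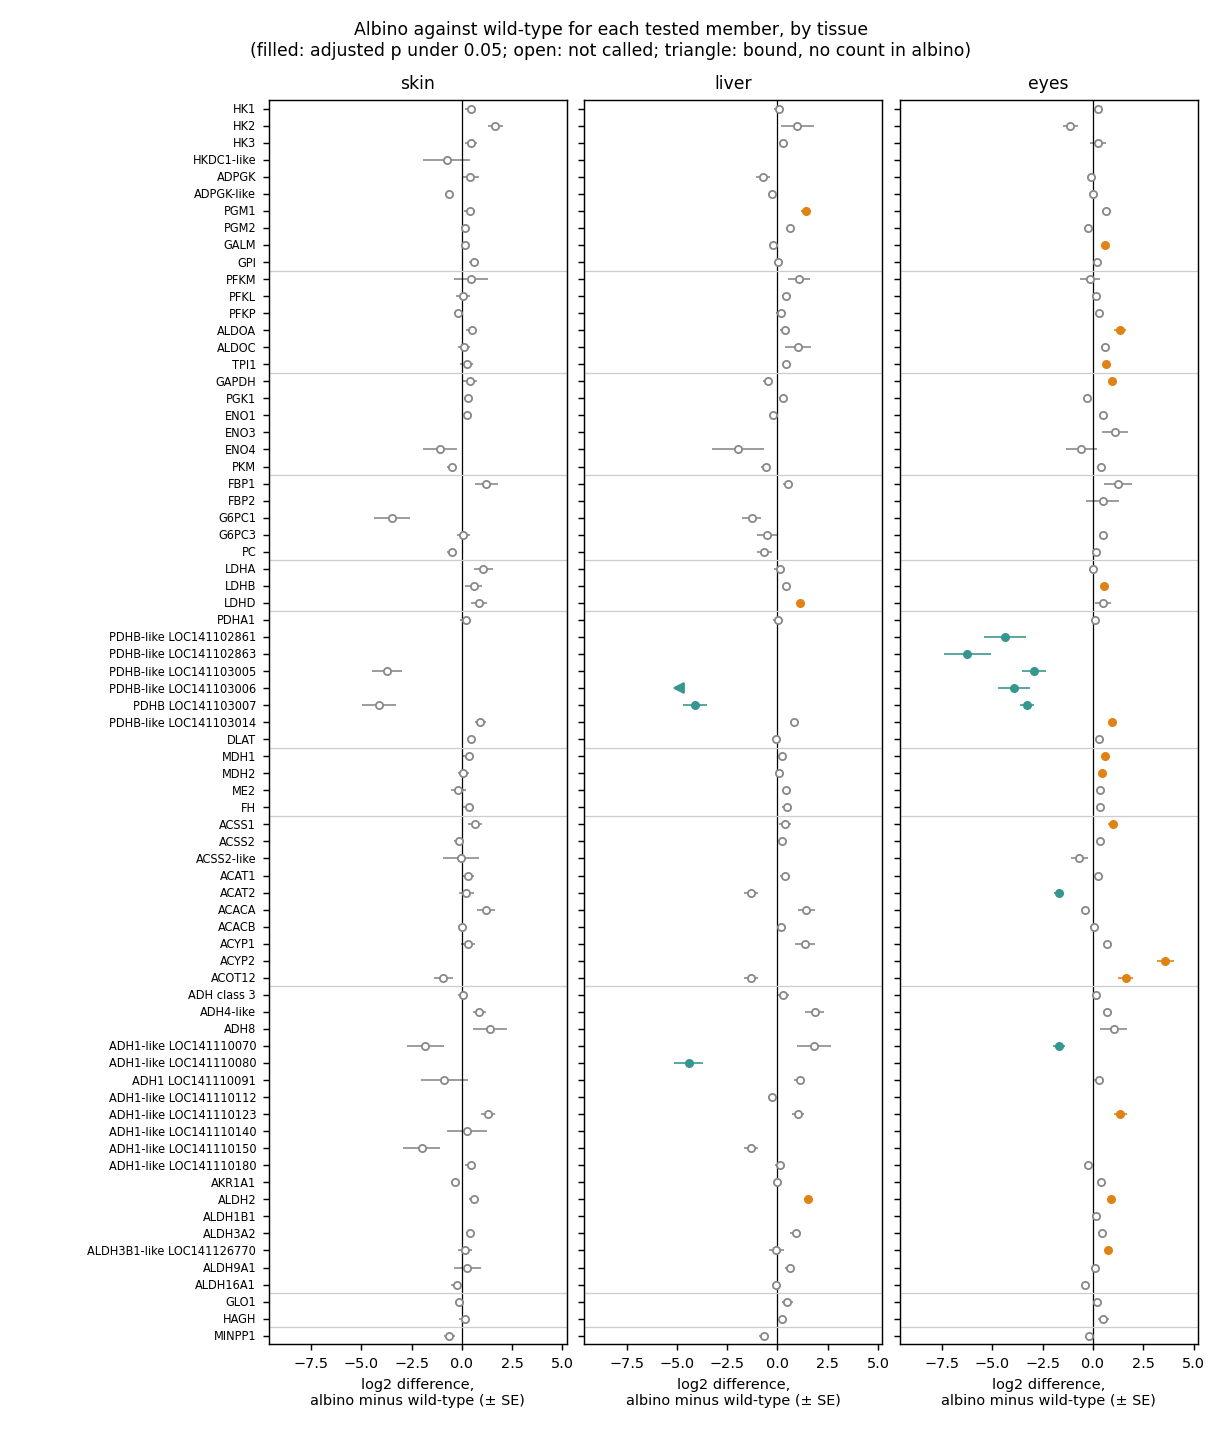
Log2 difference, albino minus wild-type (± SE), for the members tested in skin, liver and eyes, of which 2 members are not shown, with horizontal lines between roles. Filled points are called, open points are not, and the triangle marks the bound for LOC141103006 in liver, where albino libraries had no count; calls are absent from skin, 6 in liver and 21 in eyes.

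The 5 smallest p-values in skin belonged to 2 rows of the pyruvate dehydrogenase beta subunit, HK2, G6PC1 and ADH1-like LOC141110123. HK2 was at 33.3, 27.4 and 69.0 CPM in albino skin, against 15.9, 12.9 and 12.3 CPM in wild-type skin. All albino libraries were above all wild-type ones, albino skin 3 highest, and the difference was 1.66 ± 0.36 (adjusted p = 0.149). G6PC1 was at 0.135, 0.0246 and 0.0255 CPM in albino skin, against 0.851, 0.799 and 0.391 CPM in wild-type skin, a low level in both genotypes (-3.48 ± 0.88, adjusted p = 0.178). ADH1-like LOC141110123 was at 27.3, 27.2 and 48.2 CPM in albino skin, against 8.90, 15.0 and 17.8 CPM in wild-type skin, without overlap (1.30 ± 0.34, adjusted p = 0.189). HK3 in skin was at 171, 90.7 and 142 CPM in albino skin, against 127, 82.9 and 86.5 CPM in wild-type skin and overlapped (0.45 ± 0.30, adjusted p = 0.582), as did HK1 (0.44 ± 0.28, adjusted p = 0.552).

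LDHA was the most abundant lactate enzyme of skin, at 2678, 882 and 1650.3 CPM in albino skin, against 545, 864 and 1077 CPM in wild-type skin. Albino skin 1 and 3 lay above the wild-type libraries and albino skin 2 within them, and the difference was 1.07 ± 0.46 (adjusted p = 0.387). LDHB was at 339, 273 and 179 CPM in albino skin, against 157, 95.6 and 277 CPM in wild-type skin, with overlap (0.58 ± 0.43, adjusted p = 0.615). GPI was at 482, 451 and 392 CPM in albino skin, against 266, 271 and 340.4 CPM in wild-type skin, higher in every albino library (0.59 ± 0.24, adjusted p = 0.363). PKM was at 239, 216 and 161 CPM in albino skin, against 284, 308 and 286 CPM in wild-type skin, lower in every albino library (-0.51 ± 0.24, adjusted p = 0.416). By deposited FPKM PKM overlapped, with 95.7 in albino skin 2 and 95.5 in wild-type skin 3. GAPDH was at 2300.0, 1198 and 1209 CPM in albino skin, against 1056, 940.4 and 1602 CPM in wild-type skin, and only albino skin 1 lay outside the wild-type range (0.39 ± 0.38, adjusted p = 0.708). ALDOA was at 582, 661 and 453 CPM in albino skin, against 367, 333 and 518 CPM in wild-type skin and TPI1 at 526, 361 and 302 CPM in albino skin, against 308, 266 and 432 CPM in wild-type skin. Both overlapped (0.48 ± 0.29, adjusted p = 0.527 and 0.24 ± 0.31, adjusted p = 0.792), as did ENO1 (0.25 ± 0.27, adjusted p = 0.738) and ALDOC (0.12 ± 0.30, adjusted p = 0.894).

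PGK1 was at 135, 101 and 119.8 CPM in albino skin, against 96.9, 93.1 and 98.4 CPM in wild-type skin, without overlap (0.30 ± 0.20, adjusted p = 0.577). By deposited FPKM it overlapped, with 63.8 in albino skin 1 and 63.9 in wild-type skin 1. The phosphofructokinases overlapped, with -0.18 ± 0.21 (adjusted p = 0.750) for PFKP, 0.06 ± 0.33 (adjusted p = 0.959) for PFKL and 0.46 ± 0.85 (adjusted p = 0.856) for PFKM. FBP1 was at 39.8, 30.9 and 44.5 CPM in albino skin, against 13.1, 5.34 and 31.4 CPM in wild-type skin and PC at 69.4, 81.3 and 103 CPM in albino skin, against 119, 143 and 97.0 CPM in wild-type skin. Neither was called, with 1.21 ± 0.58 (adjusted p = 0.427) and -0.50 ± 0.25 (adjusted p = 0.447), and both overlapped. ENO3 and FBP2 did not pass the count filter in skin. ENO3 had 12.7 CPM in albino skin 2 and at most 0.0676 CPM in the other 5 skin libraries, and FBP2 0.591 CPM in albino skin 2 and at most 0.0486 CPM elsewhere in skin. Albino skin 2 was the library with 274 CPM of muscle markers, including 116 CPM of CKM.

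ALDH2 was at 382, 368 and 417 CPM in albino skin, against 236, 234 and 299.6 CPM in wild-type skin. As in liver and eyes, no albino library overlapped a wild-type one, but the difference of 0.60 ± 0.23 (adjusted p = 0.345) was not called in skin. MDH1 gave 0.34 ± 0.26 (adjusted p = 0.632), MDH2 0.07 ± 0.28 (adjusted p = 0.944), ACSS2 -0.15 ± 0.26 (adjusted p = 0.854), the class 3 alcohol dehydrogenase 0.03 ± 0.24 (adjusted p = 0.971), GLO1 -0.13 ± 0.22 (adjusted p = 0.838) and HAGH 0.13 ± 0.30 (adjusted p = 0.888), all with overlapping groups. ACACA was at 2.47, 1.80 and 3.42 CPM in albino skin, against 1.14, 1.42 and 0.749 CPM in wild-type skin, without overlap (1.21 ± 0.44, adjusted p = 0.321). Without wild-type skin 3 the count was 1, and without any other single library it was 0. Macrophage markers summed to 1002 CPM in wild-type skin 1, against 134 to 354 CPM in the albino and 216 and 223 CPM in the other wild-type skin libraries.

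The pyruvate dehydrogenase complex oxidises pyruvate to acetyl-CoA, and its E1 part is built from alpha and beta subunits. The alpha subunit PDHA1 was at 79.2, 75.4 and 78.0 CPM in albino eyes, against 73.8, 66.1 and 74.5 CPM in wild-type eyes. These did not overlap, but by little, and the difference was 0.12 ± 0.10 (adjusted p = 0.448). PDHA1 overlapped in liver (0.03 ± 0.23, adjusted p = 0.961) and skin (0.18 ± 0.25, adjusted p = 0.808). DLAT, the E2 subunit, gave 0.28 ± 0.10 (adjusted p = 0.123) in eyes, -0.08 ± 0.18 (adjusted p = 0.839) in liver and 0.44 ± 0.21 (adjusted p = 0.422) in skin. Neither subunit was called in any tissue.

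The beta subunit is represented by 7 member rows, which lie next to each other on linkage group 7 of ASM4218655v1, in the order LOC141102861, LOC141103005, LOC141103006, LOC141102862, LOC141103007, LOC141102863 and LOC141103014. A further gene named PDHB, no member, is the 13th coding gene counted from LOC141102861. PDHB had 1228, 907 and 913 counts in albino eyes, against 735, 454 and 1142 counts in wild-type eyes. In skin PDHB had 1329, 2076 and 1870 counts in albino, against 829, 968 and 1208 counts in wild-type libraries. In liver PDHB had 0, 2 and 17 counts in albino, against 2, 0 and 0 counts in wild-type libraries. LOC141103007 had 11, 20 and 21 counts in albino eyes, against 173, 120 and 131 counts in wild-type eyes. In liver it had 2, 1 and 2 counts in albino liver, against 48, 24 and 36 counts in wild-type liver, and in skin 8, 1 and 2 counts in albino skin, against 89, 55 and 69 counts in wild-type skin. In each of the 3 tissues every albino library was below every wild-type one. The log2 difference was -3.27 ± 0.34 (adjusted p = 0.00275) in eyes, -4.08 ± 0.60 (adjusted p = 0.00921) in liver and -4.11 ± 0.85 (adjusted p = 0.135) in skin, called in eyes and liver.

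LOC141103006 had 5, 13 and 10 counts in albino eyes, against 204, 134 and 23 counts in wild-type eyes. In liver it had 0, 0 and 0 counts in albino liver, against 40, 37 and 30 counts in wild-type liver, and in skin 1, 1 and 1 counts in albino skin, against 128, 56 and 9 counts in wild-type skin. Every albino library was below every wild-type one, and library 3 was the lowest of the wild-type ones in all 3 tissues. With no count in the albino liver libraries, the row was at least 29.7-fold lower in albino than in wild-type liver, taking 3 counts over the group as the floor (adjusted p = 0.00912). In eyes it fell by 3.93 ± 0.82 (adjusted p = 0.0274), and in skin, where it did not pass the count filter, albino libraries held 3 counts and wild-type ones 193, a ratio of 63.6-fold lower in albino with a counting interval of 21.5 to 311.

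LOC141102863 had 0, 2 and 0 counts in albino eyes, against 80, 60 and 11 counts in wild-type eyes. It fell in eyes (adjusted p = 0.0191), with 2 counts in albino and 151 in wild-type eyes, a depth-adjusted ratio of 89.8-fold lower in albino with a counting interval of 24.4 to 748. LOC141102861 had 0, 0 and 3 counts in albino eyes, against 19, 10 and 31 counts in wild-type eyes and fell there (adjusted p = 0.0380), with a ratio of 23.8-fold lower in albino and a counting interval of 7.76 to 119. LOC141103005 had 14, 12 and 4 counts in albino eyes, against 54, 36 and 104 counts in wild-type eyes, a fall of 2.91 ± 0.60 (adjusted p = 0.0242), and in skin its difference was -3.72 ± 0.74 (adjusted p = 0.129). LOC141102862 is the exception among the 6 low rows, with 5 counts in albino eyes and 1 in wild-type eyes in all, and none in skin or liver. Intervals and floors cover counting error only. When 1 library of the eyes was left out at a time, LOC141102863 kept its call in 2 of 6 comparisons. LOC141102861, LOC141103005 and LOC141103006 kept theirs in 1 of 6.

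LOC141103014, the remaining row, carried most of the reads and pointed the other way. It had 6086, 5625 and 4906 counts in albino eyes, against 2937, 1868 and 2391 counts in wild-type eyes. In liver it had 551, 308 and 673 counts in albino liver, against 307, 363 and 345 counts in wild-type liver, and in skin 1642, 1532 and 2520 counts in albino skin, against 1239, 811 and 1013 counts in wild-type skin. On the CPM scale every albino library was above every wild-type one in each tissue, with log2 differences of 0.97 ± 0.12 (adjusted p = 0.00514) in eyes, 0.83 ± 0.23 (adjusted p = 0.0719) in liver and 0.91 ± 0.28 (adjusted p = 0.257) in skin, called in eyes only. By deposited FPKM its groups overlapped in liver, at 8.93, 4.98 and 10.8 in albino liver, against 4.99, 5.89 and 5.64 in wild-type liver. The difference between tissues was tested and not called for this row. Over the 7 rows, the 6 low rows held 0.507% to 0.864% of the counts in albino eyes and 11.2% to 16.2% in wild-type eyes. In liver the share was 0.296% to 0.965% in albino and 18.4% to 26.0% in wild-type libraries, and in skin it was 0.238% to 0.665% in albino and 11.8% to 19.0% in wild-type libraries.

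The sum of the 7 rows, which leaves out PDHB and so is not the whole beta subunit, was at 159, 140 and 130 CPM in albino eyes. In wild-type eyes it was at 94.2, 80.3 and 79.6 CPM. In liver the sum was 14.6, 10.1 and 18.0 CPM in albino and 9.77, 10.9 and 9.85 CPM in wild-type libraries, which overlapped, and in skin 55.9, 37.8 and 64.4 CPM in albino and 37.2, 25.2 and 37.4 CPM in wild-type libraries. With the 7 rows summed before the edgeR fit, the sum differed by 0.76 ± 0.12 (adjusted p = 0.0124) in eyes, 0.49 ± 0.22 (adjusted p = 0.235) in liver and 0.66 ± 0.27 (adjusted p = 0.371) in skin, called higher in eyes only. In skin the groups were separated by under 1 CPM, and by library totals they overlapped, with 41.9 CPM in albino skin 2 and 42.1 CPM in wild-type skin 1. How alike the 7 rows are in sequence was not measured. The sources used here do not give how reads matching more than 1 row were assigned, so the value of any single row is uncertain.

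**Figure D5:**
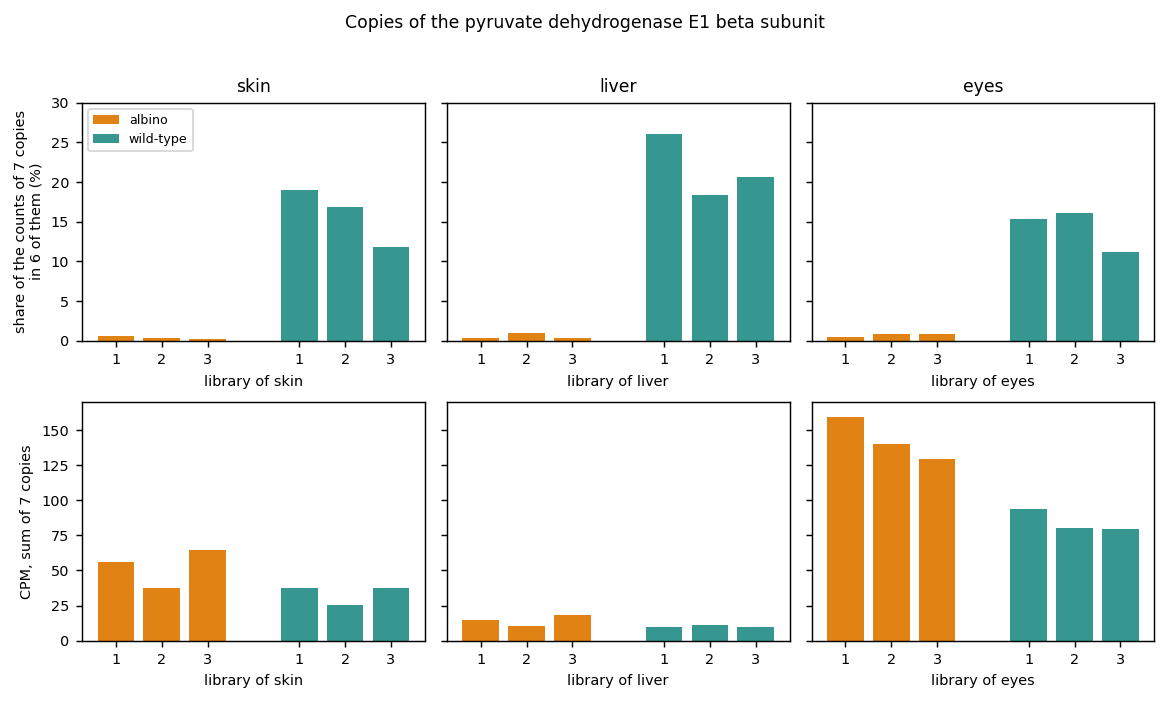
Top: share (%) of the counts of the 7 rows of the pyruvate dehydrogenase beta subunit that fell on the 6 low rows, in each library. Bottom: summed CPM of the 7 rows. Albino libraries (left in each panel) hold under 1% in the 6 low rows and wild-type libraries 11.2% or more, while the sum lies higher in every albino library in eyes and, by a narrow margin, in skin, and was called in eyes only.

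The difference between albino and wild-type was compared between tissues by an interaction term. Between eyes and liver, 4 of 73 tested members were called, 2 higher and 2 lower, where 3.42% of all genes tested were called (1.31% higher and 2.11% lower). ACOT12, called higher in albino eyes and at -1.32 ± 0.34 (adjusted p = 0.0603) without a call in liver, gave 2.93 ± 0.49 (adjusted p = 0.00919), as log2 difference in eyes minus that in liver. GAPDH gave 1.38 ± 0.25 (adjusted p = 0.0148), ACACA -1.85 ± 0.41 (adjusted p = 0.0332) and ADH1-like LOC141110070 -3.54 ± 0.84 (adjusted p = 0.0420). Between skin and eyes, HK2 was the only one of 72 tested members called, at 2.78 ± 0.56 (adjusted p = 0.0456), where 0.991% of all genes tested were called (0.755% higher and 0.236% lower). Between skin and liver none of 71 was called, where 0.270% of all genes tested were called (0.110% higher and 0.160% lower), 7 members had an unadjusted p under 0.05, and DESeq2 called 1. Over all 18153 genes tested there, 1762 had an unadjusted p under 0.05, a share close to that of the members, and DESeq2 called 381. Library totals gave 10 higher and 1 lower between eyes and liver and none between skin and eyes, with the median gene moved to 0.50 and -0.29. Over all genes, library totals gave 1582 higher and 234 lower of 19128 between eyes and liver. Between skin and eyes they called 91 of 19477 genes.

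Of 44 related genes outside the members (transporters, carriers, regulators, glycogen enzymes and the rows left out), 39 were tested in eyes, and 7 rose and 3 fell, where 5.10% of all genes tested were called higher and 6.10% lower. PFKFB3, which makes the fructose 2,6-bisphosphate that activates phosphofructokinase, was at 565, 706 and 446 CPM in albino eyes, against 197, 173 and 120.3 CPM in wild-type eyes. It rose by 1.81 ± 0.23 (adjusted p = 0.00583) in eyes and fell by 1.28 ± 0.20 (adjusted p = 0.0119) in liver. The lactate carrier SLC16A3 was at 129, 136 and 115 CPM in albino eyes, against 76.0, 68.7 and 65.1 CPM in wild-type eyes (0.85 ± 0.11, adjusted p = 0.00586), and the mitochondrial pyruvate carrier subunit MPC1 rose too (0.70 ± 0.11, adjusted p = 0.0112). PDK4, the kinase that switches pyruvate dehydrogenase off, was at 3.90, 4.75 and 4.09 CPM in albino eyes, against 10.6, 14.0 and 19.5 CPM in wild-type eyes and fell by 1.79 ± 0.25 (adjusted p = 0.00711). The cytosolic malic enzyme ME1 fell by 2.30 ± 0.30 (adjusted p = 0.00732).

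In liver, 39 of the 44 were tested, and 3 rose and 6 fell, where 2.86% of all genes tested were called higher and 2.90% lower. Of 13 tested regulators 5 fell. PDP2, the phosphatase that switches pyruvate dehydrogenase on, was at 7.25, 4.60 and 7.34 CPM in albino liver, against 38.5, 21.6 and 20.9 CPM in wild-type liver (-2.07 ± 0.30, adjusted p = 0.00914). PFKFB1, PFKFB3 and TXNIP, which restrains glucose uptake, fell as well, and TXNIP fell by 0.93 ± 0.22 (adjusted p = 0.0442). PFKFB1 fell in liver by 1.00 ± 0.19 (adjusted p = 0.0217) and rose in eyes by 0.65 ± 0.17 (adjusted p = 0.0436). UGP2, which makes the glucose donor for glycogen, rose by 1.09 ± 0.22 (adjusted p = 0.0299), and the fructose transporter SLC2A5 fell by 0.93 ± 0.22 (adjusted p = 0.0480).

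In skin none of 38 tested was called. TXNIP was at 177, 175 and 109 CPM in albino skin, against 444, 491 and 561 CPM in wild-type skin. PFKFB3 was at 7.03, 8.69 and 8.83 CPM in albino skin, against 32.2, 21.7 and 59.2 CPM in wild-type skin. PDK4 was at 1.72, 3.25 and 0.536 CPM in albino skin, against 9.29, 14.2 and 15.0 CPM in wild-type skin. All 3 were lower in every albino library, with -1.70 ± 0.28 (adjusted p = 0.0947), -2.20 ± 0.38 (adjusted p = 0.0986) and -2.80 ± 0.60 (adjusted p = 0.144).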

How the data were processed

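Per the labels' protocols, RNA was extracted with TRIzol and libraries were made with a VAHTS kit. Per the submitters' processing notes, reads were aligned with HISAT2 and counted with HTSeq. Versions, genome build and strand setting were not given in the sources used here. The authors deposited 1 table of raw counts and 1 of FPKM values, each with 24636 annotated gene rows and 18 libraries, and FPKM follows each library's total.

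Counts were tested in R 4.3.3 with edgeR 4.0.16 (filterByExpr, TMM, robust quasi-likelihood fit of the 6 libraries compared, or 12 for an interaction), with Benjamini-Hochberg adjustment over all genes at 0.05. Alternatives used DESeq2 1.42.0, limma 3.58.1 on log2(FPKM + 1) and log2(FPKM + 0.1), RLE scaling, library totals, no filter, a replicate block, 1 fit of 18 libraries and leaving out libraries. SEs are the log2 difference divided by the root of F. Figures and summaries used Python 3.11.15, pandas 2.3.3, numpy 2.4.6, scipy 1.17.1 and matplotlib 3.10.9. The main edgeR fit was tested on simulated data for some of the comparisons, with the same dispersion for every gene. The alternatives were not tested in this way. Floors are 3 counts over a group, ratios of low counts have exact 95% intervals, and both cover counting error only.

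The members and lists were chosen with earlier results of these data known. Genes named were the main enzyme of each step, called or not, members called in a genotype comparison (the 5 smallest p in skin), the 6 largest differences each way between wild-type tissues, and members called in an interaction. Of the genes this rule names, 2 are not reported here. The alcohol dehydrogenases near the threshold in liver, ACAT2 and ACOT12 in liver, HK3 in skin and the genes outside the members were named after their values were seen. Gene names are those of the deposited table, and all 77 members matched a symbol in RefSeq's gene table of ASM4218655v1, which was used for names and gene order only.

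Same-numbered libraries of the 2 genotypes did not deviate together (r across 20238 genes from -0.155 to 0.0572), so the genotype fits carry no block. Same-numbered libraries of eyes and skin did, with r of 0.160 to 0.479. Pairs with liver gave 0.0567 to 0.372, the lowest of which lies within the range between genotypes. Pairs with unlike numbers were not computed. The main tissue and interaction fits carry no block either. The labels do not say what the numbers mark.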

Additional observations from a re-analysis of the deposited data

Results flagged for a closer look

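Whether the albino difference itself differed between 2 tissues was tested with an interaction term (edgeR's quasi-likelihood test with Benjamini-Hochberg adjustment), and 5 members passed. For each the value is the log2 difference, albino minus wild-type, in the tissue named first minus that in the other. HK2 gave 2.78 between skin and eyes, being higher in all 3 albino skin libraries and lower in all 3 albino eye libraries than in wild-type, and lost the call in 10 of the 12 comparisons that leave out 1 library. ACOT12 gave 2.93 between eyes and liver and was called in all 12. GAPDH gave 1.38 between eyes and liver, with the call lost without wild-type liver 2 (adjusted p = 0.0502). ACACA gave -1.85 between eyes and liver and was called in 3 of 12. ADH1-like LOC141110070 gave -3.54 between eyes and liver and was called in 2 of 12.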

How the results depend on the processing

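The counts of members called varied most between albino and wild-type tissues. Leaving out 1 library at a time gave 0 to 1 called in skin, 1 to 11 in liver and 6 to 15 in eyes, and, for the interactions, 0 between skin and liver, 0 to 2 between skin and eyes and 2 to 6 between eyes and liver. DESeq2 called 5 in skin, 17 in liver and 32 in eyes, and 1, 7 and 10 in the 3 interactions in the same order. Over all genes it called 381 of 18153, 949 of 19477 and 1704 of 19128 in these interactions. A single fit of all 18 libraries called 7 in skin, 11 in liver and 11 in eyes, 0 between skin and eyes and 1 between eyes and liver. Library totals called 10 in liver, 0 between skin and eyes and 11 between eyes and liver. Over all genes they called 1182 of 14990, 91 of 19477 and 1816 of 19128 in the same order. Without the count filter 11 were called in liver. Limma called 1 in skin on log2(FPKM + 1), and 2 in skin and 10 in liver on log2(FPKM + 0.1). With wild-type liver 2 and 3 summed, 3 were called in liver. Alternatives chosen after seeing the data were the sum of the 7 beta subunit rows, which gave 0 in skin, 4 in liver and 16 in eyes, the fit without lens genes, with 21 in eyes, and the fit without albino eyes 1 and 2, with 0 in eyes. In that fit the lone albino library is assumed to vary like the wild-type ones.

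The replicate block gave 8 called in eyes, 5 higher and 3 lower, 8 in liver and 0 in skin. Same-numbered albino and wild-type libraries did not deviate together, and the labels do not say what the numbers mark. Why fewer members were called in eyes was not tested. Between wild-type eyes and skin, where same-numbered libraries deviated together, the block gave 42 against 41 without it and changed no call of a named member. Counts between wild-type tissues stayed within 1.5 times under every alternative run.

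Over all genes, the skin count of 16 became 757 with DESeq2, 680 in 1 fit of 18 libraries, 45 without the filter, 27 with the block, 92 and 123 with limma and 0 to 51 without 1 library. The liver count of 864 became 1853 with DESeq2, 147 with wild-type 2 and 3 summed and 134 to 1381 without 1 library. The eyes count of 1995 became 3504 with DESeq2, 937 with the block, 764 in 1 fit of 18 libraries, 3162 and 3112 with limma, 62 without albino eyes 1 and 2 and 458 to 1634 without 1 library.

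Differences within 1 SE of 0 were given no direction. Of the named members' other values, 2096 kept direction and side of the threshold, 167 lost the call and 39 gained it, and 16 turned sign, all in liver and uncalled. With library totals, limma at + 1 and limma at + 0.1, PGK1 gave -0.026, -0.044 and -0.045, MDH1 -0.066, -0.064 and -0.064, ACSS2 -0.058, -0.030 and -0.056, ADH class 3 -0.028, -0.075 and -0.078, and HAGH -0.054, -0.048 and -0.057. These 3 settings do not use TMM scaling, and the cause was not tested. HK2 in liver gave -0.093 to 1.71 over the fits that leave out 1 library, the lowest without albino liver 3. Depth limits the values of the 6 low beta subunit rows and the low ADH1 rows, some of which had under 10 counts in a group.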
